A study of Homo sapiens with 8 samples.

Results

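The 10 genes described here are targets and regulators of the Hippo pathway together with the receptor gene AXL. They are CCN1, CCN2, ANKRD1 and AMOTL2, which are YAP target genes, AXL and NT5E, which encode cell surface proteins, and LATS2, AJUBA, YAP1 and WWTR1, which encode parts and partners of the pathway. Each was found by its symbol, and all 10 were listed, among 61271 genes for NCI-H647 and among 46427 genes for NCI-H1944. They were chosen for their response in these libraries, including the opposite response of AXL in the 2 lines, so their changes are given as a description, without a test.

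RNA was sequenced from 8 libraries of NCI-H647 and NCI-H1944. Both are established lines from human lung cancers, and the labels give their genotype as WT. MPS1i cells received BAY-1217389 at 100 nM for 48 hr, DMSO cells received the solvent, and in both arms a washout and another 24 hr of culture came before RNA was taken. Each of the 4 groups, MPS1i and DMSO in each line, held 2 libraries. BAY-1217389 inhibits MPS1, the product of TTK, a spindle checkpoint kinase that holds back chromosome separation until every chromosome is attached, and cells without its activity divide with misplaced chromosomes.

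In the Hippo pathway the kinases MST1 and MST2 activate the kinases LATS1 and LATS2, which phosphorylate the coactivators YAP and TAZ and keep them out of the nucleus. Unphosphorylated YAP and TAZ bind TEAD factors on DNA and switch on genes for secreted matrix proteins, cytoskeletal proteins and negative regulators of the pathway itself. The pathway reads cell density, tension of the actin cytoskeleton and soluble signals, and the tetraploidy that follows failed cell division is known to activate LATS2.

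Promoter sequences are shown for CCN2, ANKRD1, AMOTL2 and AXL. The choice does not follow response, since NT5E and LATS2 were higher in both lines and are not shown. The best known TEAD site reads CATTCC, or GGAATG on the other strand, and both strands were searched from 250 bases before to 50 bases after each annotated start. RefSeq promoters on GRCh38.p14 were matched for 9 of the 10 genes in 13 windows, and CCN1 was not matched. The sequences below are the 250 bases before the start, 5′ to 3′ on the strand of the gene. Capitals mark TEAD sites and the AP-1 motif TGANTCA, which reads as the same pattern on both strands and overlapped no TEAD site.
CCN2, chr6:131951373-131951622, minus strand: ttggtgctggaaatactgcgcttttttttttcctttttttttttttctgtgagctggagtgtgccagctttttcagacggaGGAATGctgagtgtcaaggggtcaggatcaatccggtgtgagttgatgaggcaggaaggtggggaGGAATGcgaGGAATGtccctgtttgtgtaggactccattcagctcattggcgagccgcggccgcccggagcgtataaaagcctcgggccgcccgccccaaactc
ANKRD1, chr10:90921088-90921337, minus strand: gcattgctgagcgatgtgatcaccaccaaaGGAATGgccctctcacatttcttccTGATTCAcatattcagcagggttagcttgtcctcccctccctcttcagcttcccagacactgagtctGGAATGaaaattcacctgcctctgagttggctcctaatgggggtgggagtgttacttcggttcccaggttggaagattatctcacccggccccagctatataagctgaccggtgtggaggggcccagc
AMOTL2 start 2, chr3:134374448-134374697, minus strand: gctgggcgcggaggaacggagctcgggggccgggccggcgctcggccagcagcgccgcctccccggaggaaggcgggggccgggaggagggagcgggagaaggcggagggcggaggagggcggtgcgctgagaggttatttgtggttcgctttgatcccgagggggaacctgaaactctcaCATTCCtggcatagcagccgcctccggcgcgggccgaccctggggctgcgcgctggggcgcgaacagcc
AXL start 1, chr19:41218973-41219222, plus strand: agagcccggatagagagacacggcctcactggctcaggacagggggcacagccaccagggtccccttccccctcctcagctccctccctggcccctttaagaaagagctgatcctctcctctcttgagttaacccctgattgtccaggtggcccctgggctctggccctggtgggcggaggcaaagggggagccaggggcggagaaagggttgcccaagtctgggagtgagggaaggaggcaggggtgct
AXL start 2, chr19:41226505-41226754, plus strand: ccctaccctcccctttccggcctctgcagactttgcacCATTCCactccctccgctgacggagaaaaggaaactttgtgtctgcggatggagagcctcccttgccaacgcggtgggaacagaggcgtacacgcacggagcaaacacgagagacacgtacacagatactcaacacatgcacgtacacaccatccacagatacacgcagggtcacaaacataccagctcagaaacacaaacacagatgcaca
The promoter of CCN2 held 3 TEAD sites, which began at -169, -104 and -95 from the start. ANKRD1 held 2, at -220 and -128, and 1 AP-1 match at -195. AXL has a pair of annotated starts. Start 1, upstream, held no TEAD site, while start 2 held 1 at -212, followed at -188 by an interferon response motif, not capitalised, which was searched on both strands as GAAA, any 2 bases and GAAA. AMOTL2 start 2 held 1 TEAD site at -69, while AMOTL2 start 1, not shown, held none. Among the other sequences not shown, YAP1 held 1 at -162, AJUBA start 2 held 1 at -59 and LATS2 held 1 at 10, past its start. AJUBA start 1 and the NT5E and WWTR1 windows held none. TEAD sites were thus in 7 of the 13 windows, belonging to 7 genes, against 14% of all 35116 promoter windows of the same length. AP-1 and interferon motifs were each in 1 of the 13 windows, against 7.71% and 3.57% of all windows. A match of letters describes the sequence and does not show that a factor binds it.

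The NCI-H647 libraries held 13563037 and 13358514 counts in MPS1i and 19550859 and 17243487 in DMSO cells. Those of NCI-H1944 were deeper, with 43661342 and 43067647 in MPS1i and 39332931 and 38904473 in DMSO cells. NCI-H647 RNA was depleted of ribosomal RNA and NCI-H1944 RNA was selected by poly(A). A difference between the lines, in level or in response to the pulse, thus cannot be told apart from the kit and the count table. Levels are given as CPM, counts scaled to the library total. Epithelial lung markers summed to 651.3 and 646.6 CPM in MPS1i against 881 and 862 in DMSO cells of NCI-H647, where CDH1, the epithelial cadherin, had 3 to 9 counts a library. In NCI-H1944 they summed to 4780 and 4919 CPM in MPS1i against 4132 and 4160 in DMSO cells, and KRT19 and NKX2-1 were listed at 0. The leukocyte and erythroid list stayed at or below 4.23 CPM in every library. TTK itself was lower after the pulse, with 114 and 112 CPM in MPS1i against 178 and 184 CPM in DMSO cells of NCI-H647. In NCI-H1944 TTK had 12.1 and 11.4 CPM in MPS1i against 19.4 and 19.3 CPM in DMSO cells. Its fitted MPS1i level was 0.606-fold the DMSO level in NCI-H647 and 0.613-fold in NCI-H1944.

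In DMSO cells CCN1, CCN2 and ANKRD1 stood furthest apart between the lines, a contrast that the kits also differ in. For levels of different genes, CPM was divided by exon length in kilobases and averaged over the 2 DMSO libraries of a line (mean ± SD). CCN1 stood at 304 ± 5.52 CPM per kb in NCI-H647 and at 4.69 ± 0.25 in NCI-H1944. CCN2 stood at 77.2 ± 0.39 CPM per kb in NCI-H647 and at 2.57 ± 0.04 in NCI-H1944. ANKRD1 stood at 30.7 ± 1.35 CPM per kb in NCI-H647, while in NCI-H1944 it had 7 counts in 1 DMSO library and 0 in the other. AMOTL2, AJUBA and, by less, LATS2 ran the other way. AMOTL2 and AJUBA stood at 13.9 ± 0.19 and 3.56 ± 0.19 CPM per kb in NCI-H647. In NCI-H1944 AMOTL2 and AJUBA stood at 32.3 ± 0.69 and 14.5 ± 0.52. From high to low, DMSO cells of NCI-H647 had CCN1, AXL (85.8 ± 2.54), CCN2, NT5E (72.4 ± 0.38), YAP1 (37.1 ± 1.16), ANKRD1, WWTR1 (17.2 ± 0.40), AMOTL2, LATS2 (5.55 ± 0.25) and AJUBA. Every neighbouring pair in that order was apart by more than the SDs of both genes together. In DMSO cells of NCI-H1944 the order was AMOTL2, YAP1 (20.6 ± 0.26), NT5E (19.9 ± 0.75), AXL (15.2 ± 0.04), AJUBA, WWTR1 (7.87 ± 0.16), LATS2 (6.82 ± 0.23), CCN1, CCN2 and ANKRD1. YAP1 and NT5E did not differ beyond their spread there, and AXL and AJUBA were apart by little more than their SDs.

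**Figure D1:**
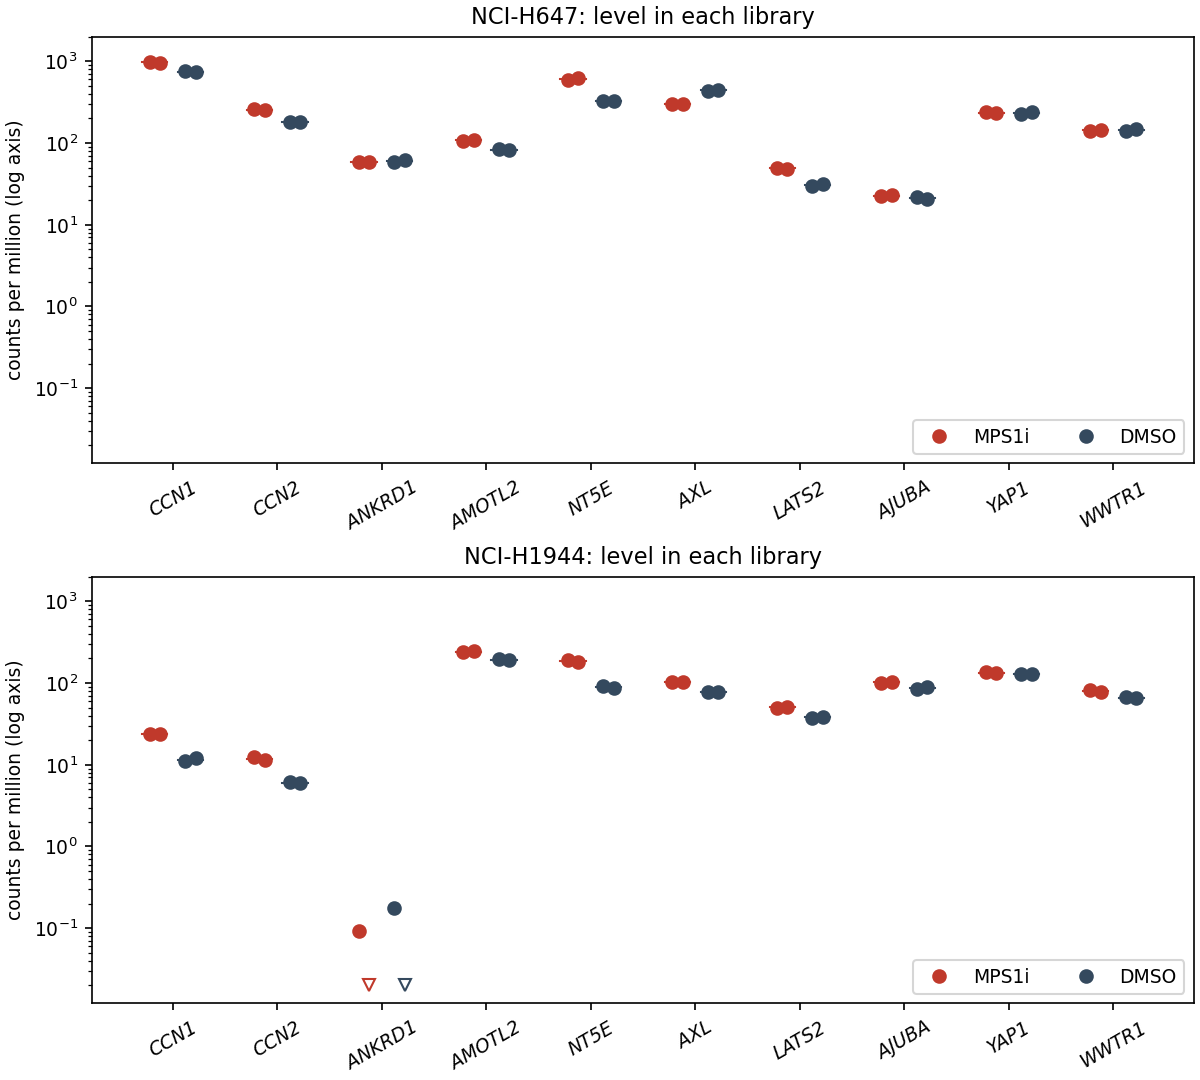
Level of each gene in each library, in CPM on a log axis, for NCI-H647 (above) and NCI-H1944 (below). Points are libraries, short lines are group means, and open triangles at the foot mark a library with 0 counts. The MPS1i points of AXL lie below the DMSO points in NCI-H647 (299 and 304 against 433 and 452) and above them in NCI-H1944 (103 and 104 against 78.3 and 78.0).

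CCN1 and CCN2, which encode secreted matricellular proteins that bind integrins, were higher after the pulse in both lines. CCN1 (chr1:85580761-85584589, plus strand, GRCh38) had 993 and 964 CPM in MPS1i against 757 and 738 CPM in DMSO cells of NCI-H647. In NCI-H1944 the gene had 24.0 and 23.9 CPM in MPS1i against 11.1 and 11.95 CPM in DMSO cells. Both MPS1i libraries lay above both DMSO libraries in each line, and the log2 fold change ± standard error (SE) of the fit was 0.34 ± 0.03 in NCI-H647 and 1.07 ± 0.08 in NCI-H1944. CCN2 (chr6:131948176-131951372, minus strand), the gene with 3 TEAD sites above, had 262 and 252 CPM in MPS1i against 180 and 181 CPM in DMSO cells of NCI-H647. In NCI-H1944 CCN2 had 12.5 and 11.3 CPM in MPS1i against 6.08 and 5.94 CPM in DMSO cells. Again the groups did not overlap, with log2 fold changes of 0.46 ± 0.04 in NCI-H647 and 1.00 ± 0.11 in NCI-H1944. The larger relative differences of both genes were thus in NCI-H1944, the line whose libraries held less of them.

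ANKRD1 (chr10:90912096-90921087, minus strand), which encodes an ankyrin repeat protein of the nucleus and the sarcomere and is a common reporter of YAP, did not share that pattern. ANKRD1 had 58.4 and 59.0 CPM in MPS1i against 58.9 and 62.7 CPM in DMSO cells of NCI-H647, and the groups overlapped (log2 fold change -0.10 ± 0.05). In NCI-H1944 there were 4 and 0 counts in MPS1i against 7 and 0 counts in DMSO cells, too few to enter the fit. AMOTL2 (chr3:134355347-134375479, minus strand), an angiomotin family protein that holds YAP at junctions and is itself a YAP target, had 107 and 110 CPM in MPS1i against 84.0 and 82.5 CPM in DMSO cells of NCI-H647. In NCI-H1944 AMOTL2 had 237 and 244 CPM in MPS1i against 196 and 190 CPM in DMSO cells. It was 1.26-fold higher in both lines without overlap, with a log2 fold change of 0.33 in each (SE 0.05 in NCI-H647 and 0.03 in NCI-H1944).

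AXL (chr19:41219223-41261766, plus strand) encodes a receptor tyrosine kinase of the TAM family that binds GAS6 and is linked to drug resistance and invasion in lung cancer. AXL had 299 and 304 CPM in MPS1i against 433 and 452 CPM in DMSO cells of NCI-H647. In NCI-H1944 AXL had 103 and 104 CPM in MPS1i against 78.3 and 78.0 CPM in DMSO cells. The groups did not overlap in either line, and they stood in opposite order. The log2 fold change was -0.60 ± 0.03 in NCI-H647, a level 34.1% lower, and 0.42 ± 0.04 in NCI-H1944, a 1.34-fold higher level. Leaving out each library in turn kept these values between -0.63 and -0.58 in NCI-H647 and between 0.41 and 0.43 in NCI-H1944. AXL ranked at percentile 9.11 of all log2 fold changes in NCI-H647 and at percentile 86.9 in NCI-H1944. Per kilobase, AXL stood at 58.5 CPM in MPS1i cells of NCI-H647, below NT5E (134) and CCN2 (110), whereas in DMSO cells it stood above both.

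NT5E (chr6:85449584-85495791, plus strand) encodes CD73, the surface enzyme that turns extracellular AMP into adenosine. NT5E had 587 and 629 CPM in MPS1i against 327 and 329 CPM in DMSO cells of NCI-H647. In NCI-H1944 NT5E had 191 and 181 CPM in MPS1i against 92.7 and 87.9 CPM in DMSO cells. It was higher in both lines without overlap, 1.79-fold in NCI-H647 (log2 0.84 ± 0.04) and 2.07-fold in NCI-H1944 (log2 1.05 ± 0.04). NT5E had the highest percentile of the 10 genes in NCI-H647 (92.3). Of the 9 genes fitted in NCI-H1944, CCN1 (95.7), NT5E (95.6) and CCN2 (95.3) ranked highest, and their SEs did not set them apart.

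Among the regulators, LATS2 was higher in both lines, while AJUBA and WWTR1 were higher in NCI-H1944 and close to their DMSO levels in NCI-H647. LATS2 (chr13:20973036-21061586, minus strand), a kinase that phosphorylates YAP and TAZ and also a YAP target gene, had 50.1 and 48.7 CPM in MPS1i against 29.97 and 31.95 CPM in DMSO cells of NCI-H647. In NCI-H1944 LATS2 had 50.2 and 51.0 CPM in MPS1i against 37.1 and 38.9 CPM in DMSO cells. The log2 fold change was 0.63 ± 0.06 in NCI-H647 and 0.42 ± 0.05 in NCI-H1944, with no overlap between groups.

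AJUBA (chr14:22971177-22982551, minus strand), a LIM protein that binds and restrains LATS kinases, had 22.3 and 23.1 CPM in MPS1i against 22.0 and 20.5 CPM in DMSO cells of NCI-H647. That difference of 0.04 ± 0.08 in log2 units was smaller than its SE and became -0.01 without DMSO replicate 2. In NCI-H1944 AJUBA had 101 and 104 CPM in MPS1i against 84.6 and 89.1 CPM in DMSO cells (log2 0.25 ± 0.04).

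YAP1 (chr11:102110447-102233424, plus strand), which encodes the coactivator YAP, had 238 and 232 CPM in MPS1i against 228 and 239 CPM in DMSO cells of NCI-H647, which overlapped (log2 -0.04 ± 0.04, and 0.01 when scaled by library totals alone). In NCI-H1944 YAP1 had 136 and 133 CPM in MPS1i against 128 and 131 CPM in DMSO cells (log2 0.06 ± 0.04). WWTR1 (chr3:149517235-149736714, minus strand), which encodes the coactivator TAZ, had 140 and 146 CPM in MPS1i against 142 and 147 CPM in DMSO cells of NCI-H647, with overlap (log2 -0.06 ± 0.04). In NCI-H1944 WWTR1 had 82.9 and 77.3 CPM in MPS1i against 67.1 and 65.2 CPM in DMSO cells, without overlap (log2 0.29 ± 0.05). The antisense gene WWTR1-AS1 had at most 19 counts in any library, and the strand setting of the counting is not given in the sources used here.

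Both MPS1i libraries lay above both DMSO libraries for 6 of the 10 genes in NCI-H647 and below them for 1, AXL, beside 42.5% and 33.9% of the 15049 genes tested. The remaining 3, ANKRD1, YAP1 and WWTR1, overlapped there. In NCI-H1944 they lay above for all 9 genes fitted, where 28.9% of the 16738 genes tested did so and 32.4% lay below. The median log2 fold change of the members was 0.19 in NCI-H647 and 0.42 in NCI-H1944, beside 0.01 and 0.00 for all genes. The members were chosen on this comparison, so these counts describe the choice. Protein and phosphorylation are not part of these values, and in bulk RNA fewer cells with a transcript and less of it per cell cannot be told apart.

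**Figure D2:**
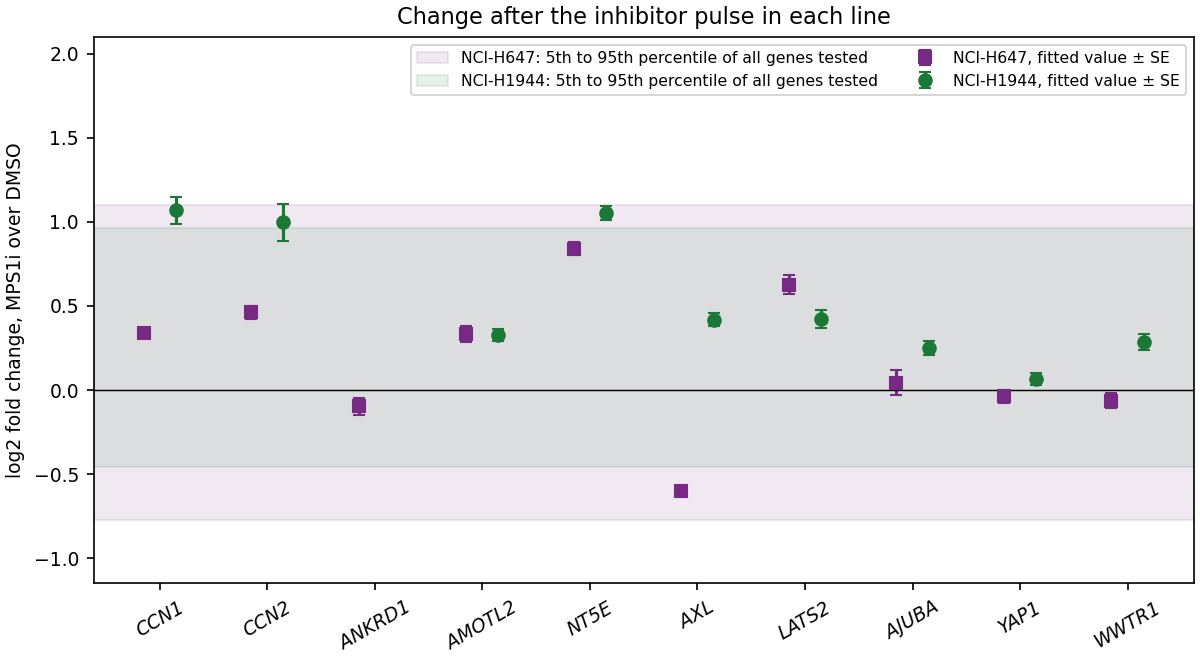
Log2 fold change of MPS1i over DMSO for each gene in NCI-H647 (squares) and NCI-H1944 (circles), with bars of 1 SE of the fit. Shaded bands hold the central part of all genes tested in each line, with percentile bounds as in the legend. AXL has a negative value in NCI-H647 (-0.60) and a positive one in NCI-H1944 (0.42).

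The change in NCI-H647 minus the change in NCI-H1944, from a joint fit of 12887 genes kept in both lines, was -1.04 ± 0.05 in log2 units for AXL. It was -0.75 ± 0.06 for CCN1, -0.56 ± 0.08 for CCN2, -0.37 ± 0.06 for WWTR1, -0.23 ± 0.05 for NT5E, -0.23 ± 0.09 for AJUBA and -0.12 ± 0.05 for YAP1. It was -0.02 ± 0.05 for AMOTL2 (0.06 when scaled by library totals alone, and its sign changed with other settings too) and 0.18 ± 0.09 for LATS2. The change was thus lower in NCI-H647 for most members, by an amount that was largest for AXL, which was chosen for its opposite response. Kit and count table differ with the line here too, so this contrast cannot be told apart from them. Over all genes of the joint fit the median difference was -0.04, and 0.045 when scaled by library totals alone. Across all alternatives the difference ran from -0.15 to -0.04 for YAP1, from -0.29 to -0.15 for AJUBA and from -1.06 to -0.96 for AXL.

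The 5 genes whose pair of changes lay nearest to that of AXL, by Euclidean distance over 2 lines among 10972 genes whose mean log2 CPM reached 1 in both, were PLSCR4, ARHGAP18, COL6A3, LINC01508 and GPR39. PLSCR4, of the phospholipid scramblase family, was closest at a distance of 0.023, with log2 changes of -0.62 in NCI-H647 and 0.41 in NCI-H1944. COL6A3, a collagen VI chain, had 16.5 and 15.9 CPM in MPS1i against 24.4 and 23.7 CPM in DMSO cells of NCI-H647. In NCI-H1944 COL6A3 had 109 and 109 CPM in MPS1i against 86.8 and 85.7 CPM in DMSO cells. In the same order of lines, the log2 changes were -0.64 and 0.46 for ARHGAP18. They were -0.62 and 0.48 for the long noncoding RNA LINC01508, and -0.54 and 0.38 for GPR39, a zinc-sensing receptor.

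The rest of the pathway was followed through 79 other genes in 8 lists. They were tested with edgeR's quasi-likelihood test at a Benjamini-Hochberg adjusted p of 0.05 over all genes. The lists were chosen with earlier results of these data known, so their counts are a description and no independent support. In NCI-H647, 20 of the 74 tested rose and 29 fell, where 27.3% of all genes rose and 27% fell (54.4% in either direction). When scaled by library totals alone, 24 rose and 26 fell. In NCI-H1944, 27 of 73 rose and 6 fell, where 13.6% of all genes rose and 12.4% fell (26% in either direction). The median log2 change was -0.06 in NCI-H647 and 0.09 in NCI-H1944, beside 0.01 and 0.00 over all genes. Nothing in the labels says whether the replicates were separate cultures, so the p-values reflect the spread of these libraries alone, and that spread may be technical.

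The other genes of a published YAP signature were split in NCI-H647 and mostly rose in NCI-H1944. In NCI-H647, 3 of 15 rose and 6 fell (median log2 change -0.04, and 0.00 when scaled by library totals alone), and in NCI-H1944, 9 rose and 1 fell (median 0.20). F3, which encodes tissue factor, the starter of blood clotting, had 129 and 121 CPM in MPS1i against 152 and 165 CPM in DMSO cells of NCI-H647. In NCI-H1944 F3 had 132 and 131 CPM in MPS1i against 68.8 and 69.5 CPM in DMSO cells. F3 fell in NCI-H647 (log2 -0.39 ± 0.05, edgeR adjusted p = 9.6e-06) and rose in NCI-H1944 (0.94 ± 0.04, adjusted p = 1.1e-11). MYOF, a membrane repair protein, did likewise, with 500 and 500 CPM in MPS1i against 769 and 792 CPM in DMSO cells of NCI-H647. In NCI-H1944 MYOF had 549 and 530 CPM in MPS1i against 473 and 468 CPM in DMSO cells. CRIM1, a membrane protein with cysteine-rich repeats, fell by 0.23 ± 0.03 in log2 units in NCI-H647 and rose by 0.38 ± 0.05 in NCI-H1944.

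PTPN14 and TGFB2, named after their values were seen, complete the 5 non-member signature genes that fell in NCI-H647 and rose in NCI-H1944. PTPN14, a phosphatase that binds YAP, had log2 changes of -0.24 ± 0.04 in NCI-H647 and 0.30 ± 0.06 in NCI-H1944. TGFB2, a TGF-beta ligand, had 708 and 756 CPM in MPS1i against 869 and 895 CPM in DMSO cells of NCI-H647. In NCI-H1944 TGFB2 had 6.14 and 5.64 CPM in MPS1i against 3.66 and 3.55 CPM in DMSO cells. Over all 12887 genes fitted jointly, 1.78% fell in NCI-H647 and rose in NCI-H1944, 1.33% did the reverse, 9.47% rose in both and 9.75% fell in both.

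Among the signature genes outside the members, only NUAK2, a kinase of the AMPK family, rose in both lines. Its log2 change was 0.46 ± 0.08 in NCI-H647 and 0.67 ± 0.07 in NCI-H1944. GADD45A, a stress response gene, rose in NCI-H647, with 100 and 101 CPM in MPS1i against 43.6 and 45.6 CPM in DMSO cells. Its NCI-H1944 change of 0.18 ± 0.06 had an adjusted p of 0.054 in edgeR. That change was called with a mean count of at least 50 and with a replicate block (edgeR adjusted p = 0.0306 and 0.0468). IGFBP3, an IGF binding protein, rose in NCI-H647 (0.67 ± 0.05) and was called lower in NCI-H1944 (-0.06 ± 0.02). That NCI-H1944 call was lost with no filter and with a mean count of at least 50 (edgeR adjusted p = 0.114 and 0.0545). Without DMSO replicate 1 of that line the change was -0.048. RBMS3, an RNA-binding protein, fell in NCI-H647 (-0.95 ± 0.08) and had only 11 to 14 counts in each library of NCI-H1944. The interaction test called 2 of the 15 signature genes above 0 and 9 below 0, against 17.4% and 22.7% of all genes (40.1% on either side). With scaling by library totals alone it called 4 and 7.

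**Figure D3:**
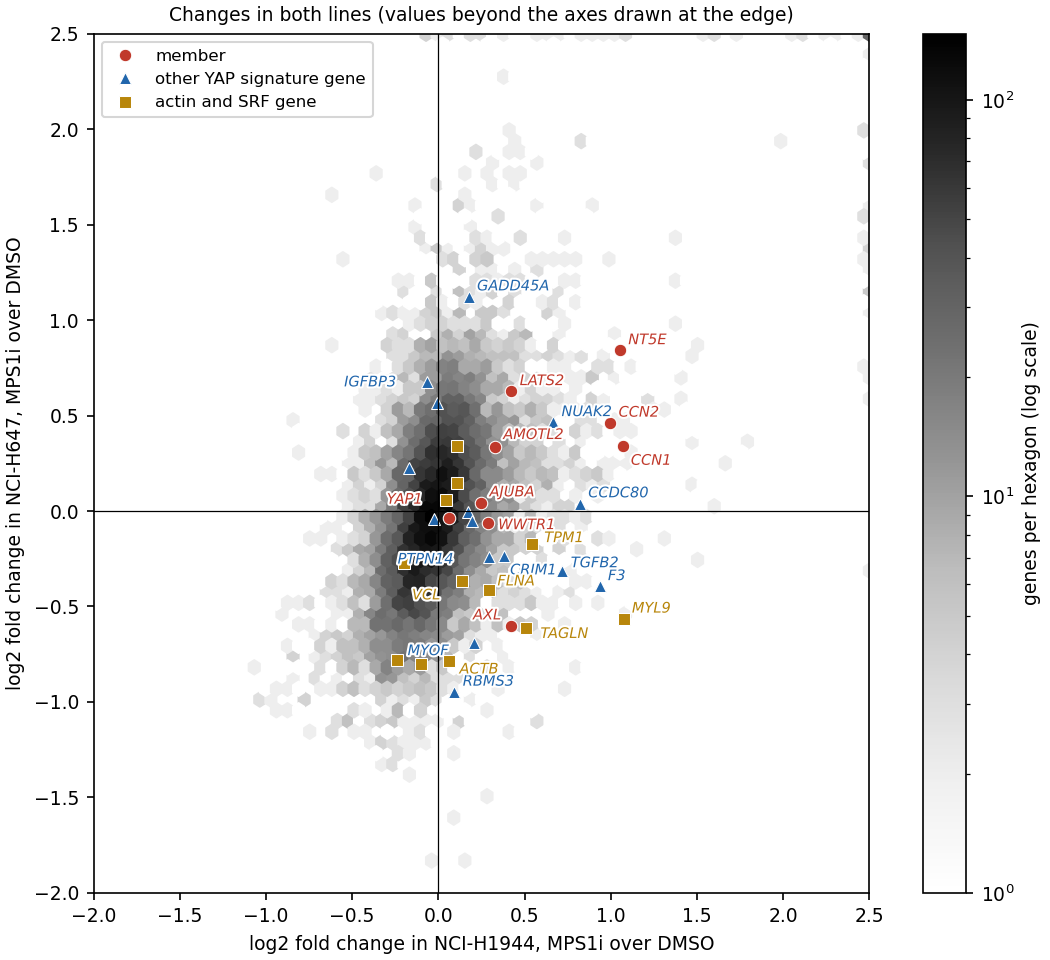
Log2 fold change of MPS1i over DMSO in NCI-H647 (vertical axis) against that in NCI-H1944 (horizontal axis), for all 12887 genes fitted in both lines (grey hexagons, log colour scale), the members (circles), the other YAP signature genes (triangles) and the actin and SRF genes (squares). AXL lies in the lower right quadrant with F3, MYOF, TAGLN and MYL9, while CCN1, CCN2, NT5E, LATS2, AMOTL2 and NUAK2 lie in the upper right.

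The actin cytoskeleton genes and factors of the SRF pathway, which reads actin dynamics alongside YAP, mostly fell in NCI-H647. There 9 of 12 tested fell and 1 rose (median log2 change -0.39), while in NCI-H1944 2 fell and 5 rose (median 0.11). ACTB, which encodes beta-actin, had 2109 and 1970 CPM in MPS1i against 3350 and 3452 CPM in DMSO cells of NCI-H647 (log2 -0.79 ± 0.03, edgeR adjusted p = 2.7e-11). In NCI-H1944 ACTB had 1264 and 1338 CPM in MPS1i against 1215 and 1299 CPM in DMSO cells, which overlapped. Its log2 change there, 0.06 ± 0.03, was not called in the main fit (edgeR adjusted p = 0.15). With a replicate block, on all libraries, ACTB was called higher (edgeR adjusted p = 0.0146). Without DMSO replicate 2 or MPS1i replicate 1 the change was 0.105 and 0.102. ACTG1, the gamma-actin gene, fell by 0.78 ± 0.03 in NCI-H647 and by 0.24 ± 0.02 in NCI-H1944. FLNA, which crosslinks actin filaments, had log2 changes of -0.41 ± 0.03 in NCI-H647 and 0.29 ± 0.02 in NCI-H1944. The tropomyosin gene TPM1 had -0.17 ± 0.04 in NCI-H647 and 0.54 ± 0.06 in NCI-H1944, and MRTFB, a coactivator of SRF, fell in NCI-H647 (-0.80 ± 0.06). CNN2, a calponin that binds actin, fell by 0.27 ± 0.05 in NCI-H647 and by 0.20 ± 0.04 in NCI-H1944 on the log2 scale.

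TAGLN, MYL9 and VCL, named after their values were seen, also fell in NCI-H647 and were called higher in NCI-H1944. With NCI-H647 first, TAGLN, an actin-binding protein, had -0.61 ± 0.06 and 0.51 ± 0.13, MYL9, a myosin light chain, had -0.56 ± 0.05 and 1.07 ± 0.30, and VCL, or vinculin, had -0.36 ± 0.04 and 0.14 ± 0.03 on the log2 scale. In NCI-H1944 TAGLN lost its call without MPS1i replicate 1 (adjusted p = 0.0581) and with DESeq2 (0.0529), and VCL without DMSO replicate 2 (adjusted p = 0.0599). MYL9, at no more than 1.86 CPM there, lost it without DMSO replicate 2, MPS1i replicate 1 or MPS1i replicate 2 (adjusted p = 0.0923, 0.064 and 0.0541), and with DESeq2 (0.0643). The interaction test called 8 of the 12 genes below 0 and 0 above in edgeR. It gave 0 above at an unadjusted p under 0.05 and in DESeq2 as well, and 1 when scaled by library totals alone.

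In the same libraries the keratins of the epithelial list were mixed. KRT7, KRT8 and KRT18 fell in NCI-H647 (log2 -0.70, -0.41 and -0.30), while KRT19, at no more than 10.8 CPM, rose there (0.35). KRT8 and KRT18 rose in NCI-H1944 (0.29 and 0.19), where KRT7 was not called (0.07, adjusted p = 0.103) and KRT19 was listed at 0. Fibroblast markers summed to 28.2 and 27.3 CPM in MPS1i against 33.1 and 36.3 CPM in DMSO cells of NCI-H647. In NCI-H1944 they summed to 46.2 and 45.6 CPM in MPS1i against 33.4 and 29.9 CPM in DMSO cells, with COL1A2 at 0. Endothelial markers summed to 30.6 and 27.0 CPM in MPS1i against 30.2 and 33.5 CPM in DMSO cells of NCI-H647, and to 1.99 and 1.90 against 0.788 and 0.797 CPM in NCI-H1944. Squamous markers stayed at or below 3.98 CPM in every library. The part of these lists in the changes of AXL and the actin genes was not tested.

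In the kinase core of the Hippo pathway, 7 of 15 genes rose and 3 fell in NCI-H647 (median log2 change 0.11). In NCI-H1944, 5 rose and 0 fell in edgeR (median 0.04), with 1 lower at an unadjusted p under 0.05 and 0 lower in DESeq2. MAP4K4, a kinase that can activate LATS in parallel to MST1 and MST2, rose in both lines. It had 963 and 945 CPM in MPS1i against 714 and 699 CPM in DMSO cells of NCI-H647, and 244 and 246 against 171 and 176 CPM in NCI-H1944. SAV1, the scaffold of the MST kinases, rose by 0.45 ± 0.08 in NCI-H647 and 0.27 ± 0.05 in NCI-H1944 on the log2 scale. FRMD6, an upstream FERM protein, rose by 0.48 ± 0.05 in NCI-H647 and 0.44 ± 0.10 in NCI-H1944, where the call was lost without MPS1i replicate 1 (adjusted p = 0.053, edgeR). WWC1, or KIBRA, had 0.04 ± 0.05 in NCI-H647 and rose in NCI-H1944 (0.34 ± 0.04).

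NF2, or merlin, which brings LATS kinases to the membrane, fell in NCI-H647, with 110 and 112 CPM in MPS1i against 167 and 164 CPM in DMSO cells (log2 -0.63 ± 0.04, edgeR adjusted p = 1.4e-08). In NCI-H1944 NF2 had 32.6 and 31.4 CPM in MPS1i against 32.5 and 34.0 CPM in DMSO cells. LATS1, the paralog of LATS2, rose in NCI-H647 (0.29 ± 0.05) and had a log2 change of 0.12 ± 0.05 in NCI-H1944 (adjusted p = 0.119, and 0.0225 without MPS1i replicate 2). RASSF1, which binds MST kinases, rose in NCI-H647 (1.18 ± 0.17) at no more than 7.74 CPM. In NCI-H1944 its change of -0.19 ± 0.09 was called without DMSO replicate 1 alone (adjusted p = 0.0262). STK4, which encodes MST1, was not called in either line, although scaling by library totals alone called it higher in NCI-H647 (adjusted p = 0.0427), and STK3, which encodes MST2, was called higher in NCI-H1944 (0.22 ± 0.06). That STK3 call was lost without DMSO replicate 1 (adjusted p = 0.07), without MPS1i replicate 2 (0.189) and with DESeq2 (0.0704).

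The junction, LIM and STRIPAK genes were split, with 3 of 12 higher and 5 lower in NCI-H647, which became 5 higher and 3 lower when scaled by library totals alone. In NCI-H1944, 2 of 11 were called higher and 2 lower. All 4 of those calls were lost when 1 library was left out, with adjusted p up to 0.26 for ZYX, 0.301 for SLMAP, 0.258 for LIMD1 and 0.25 for SCRIB in edgeR, without MPS1i replicate 2, DMSO replicate 2, DMSO replicate 1 and DMSO replicate 2 of that line. AMOT, the founding angiomotin, was called lower in NCI-H647 (-0.59 ± 0.18), and the call was lost without MPS1i replicate 2 (adjusted p = 0.161, edgeR) and with DESeq2 (0.0901). In NCI-H1944 AMOT had 2 and 3 counts in MPS1i against 0 and 0 counts in DMSO cells. SCRIB, a polarity scaffold, fell in NCI-H647 (-0.36 ± 0.05), and STRN3, a STRIPAK subunit that opposes the MST kinases, rose there (0.26 ± 0.05). AMOTL1, another angiomotin, was called higher in NCI-H647 (0.15 ± 0.05) and had 0.13 ± 0.05 in NCI-H1944 without a call. A call in NCI-H1944 appeared with a mean count of at least 50 (edgeR adjusted p = 0.0487). The NCI-H647 call of AMOTL1 was lost without DMSO replicate 2 or MPS1i replicate 1 (adjusted p = 0.0848 and 0.205, edgeR), and with DESeq2 (0.0961).

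Of the TEAD factors that carry YAP to DNA, TEAD1 was not called in either line. TEAD1 had 418 and 428 CPM in MPS1i against 402 and 401 CPM in DMSO cells of NCI-H647, and 379 and 364 against 385 and 385 CPM in NCI-H1944. TEAD4 was called lower in NCI-H647 by edgeR (-0.34 ± 0.08) but not by DESeq2 (adjusted p = 0.0618), and had -0.07 ± 0.07 in NCI-H1944. TEAD2 was called lower in NCI-H647 (-0.31 ± 0.09), and the call was lost with DESeq2 (adjusted p = 0.118) and without MPS1i replicate 2 (0.075). TEAD3 rose in NCI-H647 (0.61 ± 0.13), and its NCI-H1944 call (0.25 ± 0.08) was lost without DMSO replicate 1, MPS1i replicate 1 or MPS1i replicate 2 (adjusted p = 0.197, 0.0957 and 0.117, edgeR), and with DESeq2 (0.124). VGLL4, a cofactor that competes with YAP for TEAD, had 33.9 and 35.6 CPM in MPS1i against 22.0 and 25.7 CPM in DMSO cells of NCI-H647 and rose by 0.50 ± 0.07 in log2 units. In NCI-H1944 VGLL4 had 33.6 and 36.4 CPM in MPS1i against 42.4 and 37.6 CPM in DMSO cells (-0.18 ± 0.07, adjusted p = 0.058). On all libraries VGLL4 was called lower there with library totals alone, a mean count of at least 50 and a replicate block (edgeR adjusted p = 0.0416, 0.0475 and 0.0392). Without DMSO replicate 2 or MPS1i replicate 2 its change there was -0.27 and -0.24. VGLL3, another TEAD cofactor, had -0.11 ± 0.05 in NCI-H647 and 0.23 ± 0.06 in NCI-H1944. The NCI-H1944 call of VGLL3 was lost without DMSO replicate 2 (adjusted p = 0.122), and a call in NCI-H647 appeared without DMSO replicate 2 of that line (adjusted p = 0.0324).

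Around AXL, the relatives and ligands were followed as a list of 4. TYRO3 and MERTK are the other TAM receptors, and GAS6 and PROS1 encode their ligands. MERTK rose in NCI-H647, with 12.5 and 11.2 CPM in MPS1i against 5.58 and 6.03 CPM in DMSO cells (log2 0.98 ± 0.13, adjusted p = 1.7e-05). In NCI-H1944 MERTK had 6.48 and 8.22 CPM in MPS1i against 5.92 and 6.86 CPM in DMSO cells, which overlapped. GAS6 had 23.1 and 19.8 CPM in MPS1i against 21.8 and 21.6 CPM in DMSO cells of NCI-H647. PROS1 had 3.02 and 2.69 CPM in MPS1i against 2.46 and 3.02 CPM in DMSO cells of NCI-H647, which overlapped. It had 36 to 52 counts a library there and was not called (log2 0.02 ± 0.25). TYRO3 had a log2 change of -0.30 ± 0.12 in NCI-H647 (edgeR adjusted p = 0.052), which passed the threshold with a replicate block (0.0419). Without DMSO replicate 1 that change was -0.40. In NCI-H1944, 0 of the 4 genes were called by edgeR or DESeq2, and 0 had an unadjusted p under 0.05 in either.

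Around NT5E, the other genes of extracellular adenosine were mixed, with 2 of 8 higher and 3 lower in NCI-H647 and 3 higher and 1 lower in NCI-H1944. ADORA2A, an adenosine receptor, rose in NCI-H647, with 12.4 and 13.5 CPM in MPS1i against 0.511 and 0.986 CPM in DMSO cells. In NCI-H1944 ADORA2A had 11 and 21 counts in MPS1i against 2 and 0 in DMSO cells, and its call was lost with no filter (adjusted p = 0.115, edgeR). Its log2 change there was 3.71 in the main fit and 2.80 without DMSO replicate 2. ENTPD1, or CD39, which makes the AMP that CD73 uses, was not called in NCI-H647. It had 10 and 13 counts (0.737 and 0.973 CPM) in MPS1i against 21 and 20 (1.07 and 1.16 CPM) in DMSO cells there. In NCI-H1944 ENTPD1 had 27 and 16 counts in MPS1i against 0 and 0 in DMSO cells, at least 12.9-fold higher. That bound sets the DMSO group at a floor of 3 counts in sum and covers counting error only. DPP4, a peptidase that binds adenosine deaminase, had 25 and 31 counts in MPS1i against 14 and 13 in DMSO cells of NCI-H647 (log2 1.45 ± 0.34). In NCI-H1944 DPP4 had 20 and 13 counts in MPS1i against 0 and 0 in DMSO cells, at least 9.92-fold higher on the same floor. With ENTPD1 and DPP4 at their bounds the list median in NCI-H1944 was still 0.01. ADK, the kinase that clears adenosine inside cells, fell by 0.25 ± 0.05 in NCI-H647 and by 0.20 ± 0.04 in NCI-H1944 on the log2 scale.

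Of the other CCN genes, CCN3, a secreted relative of CCN1 and CCN2, had 2.43 and 2.17 CPM in MPS1i against 0.767 and 1.22 CPM in DMSO cells of NCI-H647 (log2 1.18 ± 0.33). That call was lost without DMSO replicate 1 or MPS1i replicate 1 (adjusted p = 0.0922 and 0.0684), and with DESeq2 (0.0717). In NCI-H1944 CCN3 had 32.7 and 31.1 CPM in MPS1i against 15.8 and 13.6 CPM in DMSO cells (log2 1.13 ± 0.08, edgeR adjusted p = 2.05e-08). CCN4 had 6 and 11 counts in MPS1i against 24 and 23 counts in DMSO cells of NCI-H647 (log2 -1.06 ± 0.40). That call of CCN4 was lost without DMSO replicate 1, DMSO replicate 2 or MPS1i replicate 1 (adjusted p = 0.107, 0.156 and 0.301), and with DESeq2 (0.245). CCN6 was listed at 0 in all 8 libraries.

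**Figure D4:**
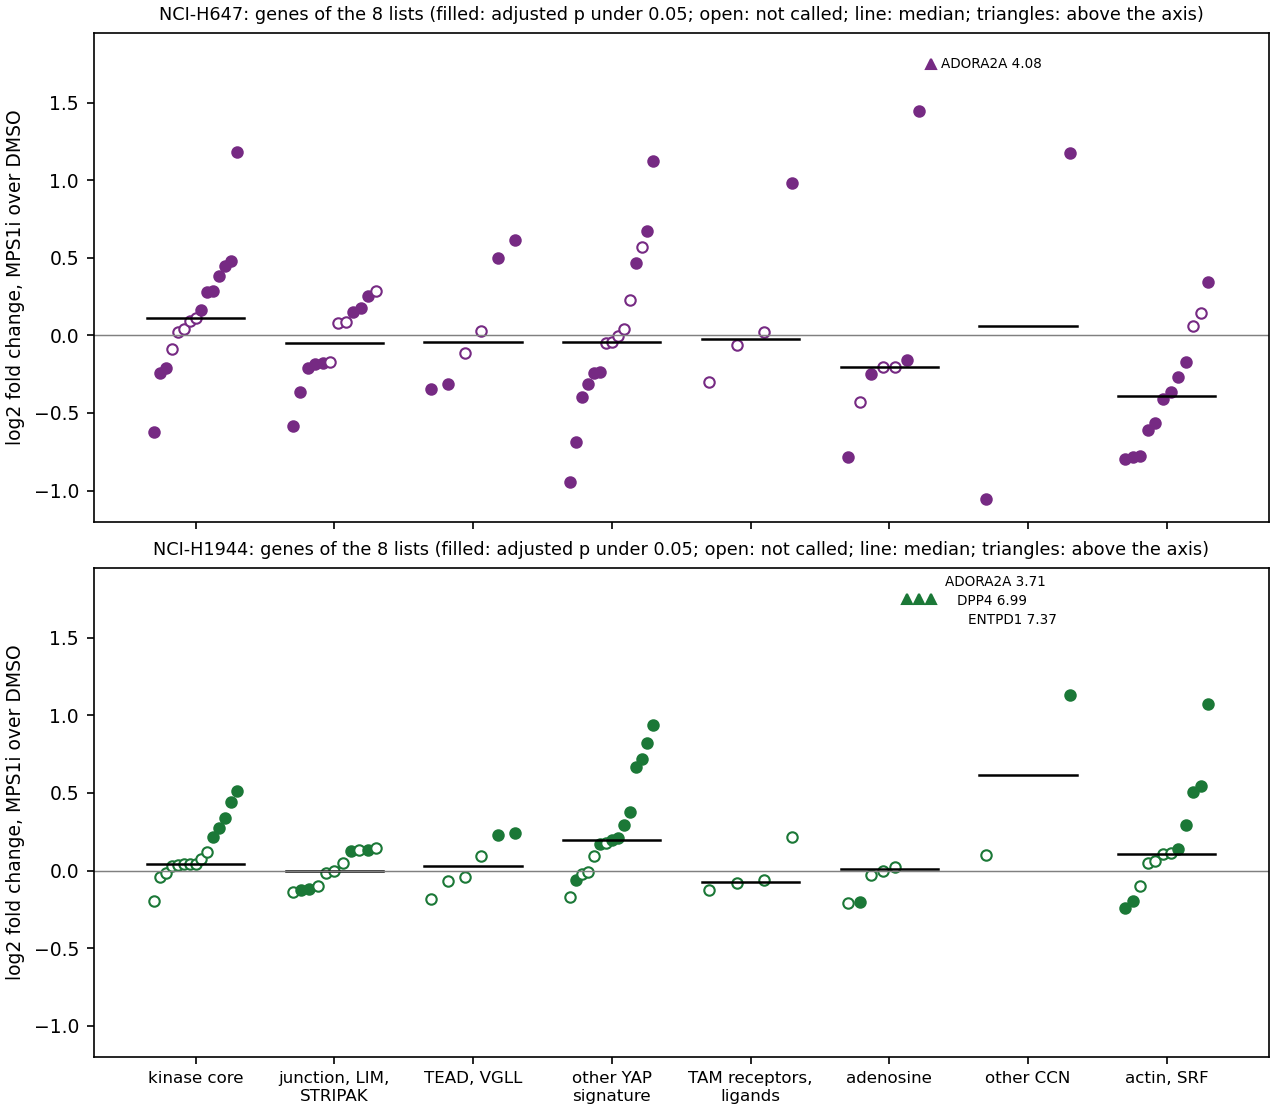
Log2 fold change of MPS1i over DMSO for each tested gene of the 8 lists in NCI-H647 (above) and NCI-H1944 (below). Filled points passed an adjusted p of 0.05, open points did not, lines are list medians, and triangles are genes above the axis with their fitted value, of which ENTPD1 and DPP4 rest on 0 counts in DMSO cells of NCI-H1944. The actin genes lie mostly below 0 in NCI-H647 (9 of 12 called lower), and the YAP signature lies mostly above 0 in NCI-H1944 (9 of 15 called higher).

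Over all 72 list genes fitted in both lines, the change in NCI-H647 minus that in NCI-H1944 was called above 0 for 6 and below 0 for 30 by edgeR. With scaling by library totals alone it was called above 0 for 14 and below 0 for 24. Over all genes the split was 2240 above and 2926 below, and 3015 above and 2089 below with library totals alone. Of the list genes, 10 fell in NCI-H647 and rose in NCI-H1944, 5 of them in the YAP signature list and 5 in the actin list. The reverse held for 1, IGFBP3. Its NCI-H1944 call was lost with no filter and with a mean count of at least 50 (edgeR adjusted p = 0.114 and 0.0545).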

How the data were processed

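Each line has its own table of raw read counts per gene, whole numbers as the authors deposited them. Per the submitters' processing notes, reads were handled with STAR, HISAT2, featureCounts, StringTie, cutadapt, Trimmomatic and Trim Galore on build GRCh38 (hg38). The sources used here give no versions, annotation, strand setting or role of each tool, so antisense and overlapping genes are uncertain. Per the labels' protocols, NCI-H647 libraries were stranded after ribosomal RNA depletion, with MGI conversion, and NCI-H1944 libraries came from a stranded poly(A) kit. Samples were grouped by their titles. A symbol listed repeatedly was represented by its entry with the highest total.

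From the deposited counts, CPM was each count over its library total, and CPM per kb used GENCODE 29 exons. Genes were kept by filterByExpr (minimum count 10, minimum total 15) and compared in each line with edgeR 4.0.16 in R 4.3.3 (TMM, quasi-likelihood F test, Benjamini-Hochberg threshold 0.05). SE is the log2 change over the square root of F. A joint fit on shared symbols gave the difference between lines as its interaction term. Alternatives were RLE factors, library totals alone (added after the data were seen), DESeq2 1.42.0, no filter, a mean count of at least 50, a replicate block and leaving out each library. The scripts were tested on simulated data. Replicates differed by more than sampling noise (chi-square of counts over its degrees of freedom between 1.98 and 3.93), and their number and depth limit the precision.

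Named are all members, up to 4 called genes per list and line with the smallest adjusted p, TEAD1 to TEAD4, VGLL4, NF2, LATS1, STK3, STK4, SAV1, AMOT, AMOTL1, GAS6, PROS1, TYRO3, MERTK, TTK, and the 5 genes nearest to AXL. PTPN14, TGFB2, TAGLN, MYL9, VCL, CCDC80 and CCN6 lie outside that rule and were picked with their values known. The members and lists were chosen with earlier results of these data known.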

Additional observations from a re-analysis of the deposited data

Results flagged for a closer look

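These results stand out because the change after MPS1i differed between the lines. Each value is the log2 change in NCI-H647 minus that in NCI-H1944. For AXL it was -1.04, with both MPS1i libraries below both DMSO libraries in NCI-H647 and above them in NCI-H1944, and the difference was not tested because AXL was chosen for it. The others passed edgeR's interaction test at an adjusted p of 0.05 over all genes. Given are the named genes alone, and further list genes that passed are left out. Differences between the lines cannot be told apart from the kit and the count table.

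In the YAP signature the difference was -1.35 for F3, -1.06 for TGFB2, -0.92 for MYOF, -0.80 for CCDC80, -0.64 for CRIM1 and -0.56 for PTPN14. It was 0.92 for GADD45A and 0.71 for IGFBP3. RBMS3 had -1.06, resting on 11 to 14 counts in each NCI-H1944 library, and its call was lost in 7 of the 8 fits that left out a library (adjusted p up to 0.114), with DESeq2 (0.0688) and with library totals alone (0.0521). Among the actin and SRF genes the difference was -1.66 for MYL9, -1.14 for TAGLN, -0.87 for ACTB, -0.74 for TPM1, -0.73 for FLNA, -0.72 for MRTFB, -0.56 for ACTG1 and -0.52 for VCL.

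Among kinase, junction and TEAD genes it was 1.36 for RASSF1, 0.66 for VGLL4, -0.61 for NF2, -0.43 for TEAD2, -0.36 for VGLL3, -0.32 for WWC1, -0.30 for TEAD4, -0.27 for SCRIB, -0.23 for PPP2R1A and -0.15 for MAP4K4. TEAD4 lost its call with DESeq2 (adjusted p = 0.198), library totals alone (0.121) and RLE factors (0.0502), and in 5 of the 8 fits that left out a library (up to 0.144). MAP4K4 moved to -0.068 with library totals alone and lost its call (adjusted p = 0.215), as it did without NCI-H1944 DMSO replicate 1 (0.0528). PPP2R1A moved to -0.15 with library totals alone and lost its call (adjusted p = 0.0600), as it did without NCI-H647 DMSO replicate 1 or MPS1i replicate 2 (0.0551 and 0.0818).

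Around AXL and NT5E it was 0.75 for MERTK and -0.60 for SLC29A2, an adenosine transporter. SLC29A2 lost its call in 4 of the 8 fits that left out a library (adjusted p up to 0.0979) and with DESeq2 (0.0948). ENTPD1 had a fitted -7.31 and DPP4 a fitted -5.05. DESeq2 gave no adjusted p for either, so with it no difference of the adenosine list was called. Both rest on 0 counts in DMSO cells of NCI-H1944, so these values depend on the prior count and are no bounds.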

How the results depend on the processing

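The members kept their direction under every alternative run, with 3 exceptions near 0. YAP1 in NCI-H647 changed sign with library totals alone, and AJUBA in NCI-H647 did so without DMSO replicate 2. The AMOTL2 difference between lines, -0.02, changed sign with RLE factors, library totals alone, DESeq2, a mean count of at least 50 and 3 of the 8 libraries left out (0.0015 to 0.063). In size, 12 member values moved by at least 1 SE of the main fit with library totals alone, and 16 stayed within it. Leaving out 1 library moved 7 member values that far and left 141 within it. The replicate numbers gave no sign of pairing the samples (correlation of deviations -0.0316 in NCI-H647 and 0.0365 in NCI-H1944), which does not tell how the cultures were set up. With the replicate block NCI-H1944 had 2490 genes higher and 2327 lower, against 2271 and 2075 without it. No filter gave 1319 higher and 1006 lower there, and 3 list genes lower, against 6. DESeq2 gave 2666 genes higher in NCI-H647, against 4114. Library totals alone gave 14 list genes with a difference above 0, against 6. The causes were not tested.

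Leaving out 1 library gave from 3314 to 3677 genes higher and from 3576 to 3718 lower in NCI-H647. In NCI-H1944 it gave from 1688 to 2050 higher and from 1609 to 1682 lower. For the difference it gave from 1817 to 2180 above 0 and from 2335 to 2798 below. Uncalled log2 changes near 0 that changed sign were STK3 (-0.0089) and PROS1 (-0.0049) in NCI-H647 with no filter, and PPP2R1A (0.0065) in NCI-H1944 with a mean count of at least 50. Across libraries left out, STK3 ran from -0.0092 to 0.041, GAS6 from -0.19 to 0.030 and PROS1 from -0.13 to 0.17 in NCI-H647. STK4 ran from -0.052 to 0.10, TYRO3 from -0.13 to 0.0028 and PPP2R1A from -0.041 to 0.031 in NCI-H1944. Of the named genes, DESeq2 lost the calls of 6 in NCI-H647, 6 in NCI-H1944 and 3 in the difference, and no filter lost those of 3 in NCI-H647 and 10 in NCI-H1944. Genes with few counts, such as ANKRD1 in NCI-H1944, are limited by depth.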
